A study of Mus musculus with 16 samples.

Results

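YAP (gene Yap1), TAZ (gene Wwtr1), their DNA-binding partner TEAD1 and 7 of their target and feedback genes were followed across sorted alveolar type 2 (AT2) cells of the mouse lung. The 10 genes, Yap1, Wwtr1, Tead1, Ccn1, Ccn2, Ankrd1, Axl, Amotl2, Lats2 and Ajuba, were found by symbol among 27179 genes in the deposited count table. All 10 were among the 15516 genes with enough counts to be tested, at 2 to 76 counts a library for Ankrd1 and at least 42 for each of the others. AT2 cells make surfactant and renew the alveolar lining. The study asked how AT2 cells with and without the surface receptor CD44 differ in lung fibrosis. It compared animals carrying a mutation of Sftpc, which encodes surfactant protein C, with control animals.

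The 16 libraries come from 8 animals, each giving a CD44+ and a CD44- sort, so that there are 4 groups of 4 libraries. They are named here as in the count table: OG CD44+ and OG CD44- (animals 3, 5, 6 and 7), and R26 CD44+ and R26 CD44- (animals 1, 2, 7 and 8). The labels give the genotypes SP-C Mutant and SP-C WT, and list OG TMX as the treatment of both. No label ties a prefix to a genotype. OG was read as mutant and R26 as control from general knowledge of recombinase alleles at Rosa26, which is an inference that the labels do not settle. If it is wrong, each OG against R26 difference changes sign against genotype, while each CD44 comparison stands. Age, sex, the allele and the promoter that drives the recombinase are not given in the sources used here. Live cells were sorted for Epcam and high CD200, without CD45, CD31 or CD104.

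YAP and TAZ are closely related coactivators that bind no DNA themselves. When the Hippo kinases LATS1 and LATS2 phosphorylate them, they are held in the cytoplasm or degraded. When that brake is off, as in stretched or spread cells, they enter the nucleus and act on genes through TEAD factors. In the alveolus they are known for roles in regeneration after injury and in the change of AT2 cells into flat type 1 (AT1) cells. Transcript levels measure neither their phosphorylation nor their place in the cell.

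TEAD factors recognise the letters GGAATG, or CATTCC on the other strand. To show where these letters stand near some of the genes that changed, 250 bases upstream of the annotated start are given for 4 of them. Ccn1, Ankrd1 and Ajuba are among those higher in at least 1 comparison, and Amotl2 is the 1 target or feedback gene that was lower. Windows of other genes that were higher are not printed, among them those of Lats2, which hold no match. The sequences are from RefSeq, build GRCm38.p6, which is mm10, read 5′ to 3′ on the strand of the gene, with each match in capitals. The windows are chr3:145649986-145650235, chr19:36119845-36120094 and chr14:54577662-54577911 on the minus strand, and chr9:102717554-102717803 on the plus strand, in the order printed.
Ccn1: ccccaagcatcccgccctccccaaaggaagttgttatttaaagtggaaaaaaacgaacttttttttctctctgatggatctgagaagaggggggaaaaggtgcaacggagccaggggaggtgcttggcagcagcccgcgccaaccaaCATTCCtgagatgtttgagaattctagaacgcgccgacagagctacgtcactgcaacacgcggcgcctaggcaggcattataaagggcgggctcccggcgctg
Ankrd1: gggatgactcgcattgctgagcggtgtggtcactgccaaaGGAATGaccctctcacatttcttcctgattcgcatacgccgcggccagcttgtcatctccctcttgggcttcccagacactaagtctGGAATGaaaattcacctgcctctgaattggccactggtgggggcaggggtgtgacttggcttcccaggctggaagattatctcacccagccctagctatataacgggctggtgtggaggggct
Ajuba: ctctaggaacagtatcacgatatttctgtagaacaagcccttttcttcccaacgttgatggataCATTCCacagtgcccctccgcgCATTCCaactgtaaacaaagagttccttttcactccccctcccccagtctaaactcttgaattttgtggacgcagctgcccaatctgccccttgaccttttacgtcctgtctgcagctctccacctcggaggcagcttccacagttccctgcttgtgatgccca
Amotl2: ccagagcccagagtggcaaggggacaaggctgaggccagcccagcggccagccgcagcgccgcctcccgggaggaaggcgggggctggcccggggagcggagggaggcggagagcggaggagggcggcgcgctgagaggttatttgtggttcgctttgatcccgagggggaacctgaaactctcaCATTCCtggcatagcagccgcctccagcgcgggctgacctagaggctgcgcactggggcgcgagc
The match lies 103 bases upstream of the start in Ccn1 and 65 bases upstream in Amotl2. Ankrd1 holds 2 matches, at 210 and 123 bases upstream, and Ajuba holds 2, at 186 and 164. Of the 10 genes, 8 had a promoter in the table. Besides these 4, Yap1 (141 bases upstream), Wwtr1 (136 or 170 bases from its 2 annotated starts) and Axl (233 bases upstream) hold 1 match in such a window, and Lats2 holds none. Over all 32851 windows of this length, 12.6% hold at least 1 match on either strand and 1.02% hold 2 or more. The letters TGANTCA, which AP-1 factors recognise, stand in none of the members' windows and in 6.75% of all. A match of letters is a description and shows no binding.

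Library totals were 9022471 to 21363816 counts. Levels below are CPM, counts per 1000000 counts, after scaling by edgeR's TMM factors. Sftpc, the gene mutated in this model, was at 5688 to 7173 CPM in OG CD44+, 11102 to 12022 in OG CD44-, 47309 to 72715 in R26 CD44+ and 71101 to 86308 in R26 CD44-. Cd44 rose with the sort in each prefix, with means of 914 and 562 CPM in OG CD44+ and OG CD44-, and 469 and 329 CPM in R26 CD44+ and R26 CD44-. All 10 AT2 markers were detected in all 4 groups. All 10 were lower in CD44+ than in CD44- libraries of either prefix, at an adjusted p under 0.05 in edgeR's test described below. By the same threshold 28.0% of all tested genes were lower in OG and 15.4% in R26. Markers of cells that the gates should remove were also present: the summed level of 12 fibroblast and mural markers was 1629 to 2868 CPM in OG CD44+, 734 to 801 in OG CD44-, 755 to 1536 in R26 CD44+ and 114 to 140 in R26 CD44-. OG animal 3 CD44+ stands apart, at 2868 CPM where the other OG CD44+ libraries reached at most 1716. Results below were therefore also computed without both libraries of that animal. In bulk libraries, fewer cells of a type and less RNA per cell cannot be told apart.

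The transcripts of the pair of coactivators behaved differently. Wwtr1 was higher in OG than in R26 libraries of either sort, while Yap1 differed little between any of the groups. Yap1 (Entrez 22601, chromosome 9, 7931999 to 8004638) was at 116, 113, 113 and 113 CPM in OG CD44+ and 131, 126, 126 and 129 CPM in OG CD44-. It was at 122, 127, 125 and 131 CPM in R26 CD44+ and 128, 135, 138 and 143 CPM in R26 CD44-. The 4 OG CD44+ libraries lay below all others, and neighbours in the order of the other groups overlapped. Yap1 was lower in OG CD44+ than in OG CD44- by a log2 fold change of -0.17 ± 0.04 (SE; adjusted p = 0.00235, edgeR's quasi-likelihood test, adjusted by Benjamini-Hochberg over all tested genes, as in all such values below). It was also lower in OG CD44+ than in R26 CD44+ (-0.15 ± 0.04, adjusted p = 0.00383), a call that was lost without the filter on low counts (adjusted p = 0.0777). In R26 the CD44 difference of -0.11 ± 0.04 missed the threshold (adjusted p = 0.0605), but passed it with the animal as a block (adjusted p = 0.0442) and in 10 other alternative settings. Among these were the fits without any 1 of the 8 R26 libraries, at -0.15 to -0.21 (adjusted p 0.00125 to 0.0134). The difference of -0.09 ± 0.04 between OG CD44- and R26 CD44- also missed it (adjusted p = 0.0696), and passed it in 13 of 23 alternative settings.

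Wwtr1 (Entrez 97064, chromosome 3, 57455644 to 57575910) was at 151, 156, 155 and 151 CPM in OG CD44+ and 162, 149, 156 and 149 CPM in OG CD44-. It was at 103, 91.1, 99.9 and 97.9 CPM in R26 CD44+ and 89.4, 79.3, 86.4 and 80.2 CPM in R26 CD44-. The OG sorts overlapped, and both lay above all R26 libraries. Wwtr1 rose 1.84-fold in OG CD44- against R26 CD44- (log2 0.88 ± 0.05, adjusted p = 8.84e-14) and 1.56-fold in OG CD44+ against R26 CD44+ (adjusted p = 3.98e-11). Within R26 it was 1.17-fold higher in CD44+ (adjusted p = 0.00099), a call lost when either R26 CD44- animal 8 (adjusted p = 0.0508) or animal 2 (0.0606) was left out. Within OG the difference was -0.01 ± 0.05 (adjusted p = 0.889).

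Set on the same scale of CPM per kilobase of exon, the order of the pair differed between the prefixes. The ratio of Wwtr1 to Yap1 per kilobase was 1.17 ± 0.0273 in OG CD44+ and 1.05 ± 0.0357 in OG CD44-, against 0.677 ± 0.0481 in R26 CD44+ and 0.540 ± 0.0515 in R26 CD44- (SD, n = 4 each). All 8 OG libraries lay above 1, the lowest at 1.01, and all 8 R26 libraries below it, the highest at 0.734. The side of 1 depends on the exon lengths used, 4779 bases for Wwtr1 and 4171 for Yap1. Which transcripts the cells used was not measured, and slightly different lengths could put OG CD44- below 1. Other fixed lengths would scale all ratios alike, so the gap between prefixes does not rest on them.

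Tead1 (Entrez 21676, chromosome 7, 112679356 to 112906784), the DNA-binding partner, was at 236, 268, 255 and 269 CPM in OG CD44+ and 239, 232, 249 and 242 CPM in OG CD44-. It was at 174, 157, 169.9 and 173 CPM in R26 CD44+ and 122, 111, 124 and 111 CPM in R26 CD44-. Like Wwtr1, it overlapped between the OG sorts, and the other neighbouring groups stood apart. It rose 2.06-fold in OG CD44- against R26 CD44- (adjusted p = 9.79e-15), 1.52-fold in OG CD44+ against R26 CD44+ (adjusted p = 2.33e-10) and 1.44-fold in R26 CD44+ against R26 CD44- (adjusted p = 3.12e-08). Within OG the log2 fold change of 0.09 ± 0.05 missed the threshold (adjusted p = 0.13), and it passed in 12 of 24 alternative settings.

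Among the 4 TEAD genes, Tead1 made up 54.2% ± 2.19 of the summed level per kilobase in OG CD44+ and 55.2% ± 1.39 in OG CD44-, against 42.7% ± 1.29 in R26 CD44+ and 31.0% ± 2.02 in R26 CD44- (SD, n = 4 each). Tead2 was the lowest of the 4 in R26 CD44- (0.695 CPM per kilobase) and reached 4.30 CPM per kilobase in OG CD44+. Tead2 rose in all 4 comparisons, by 2.21-fold to 2.85-fold. Tead3 averaged 13.4 and 13.9 CPM per kilobase in OG CD44+ and OG CD44-, and 16.4 and 19.7 in R26 CD44+ and R26 CD44-. Tead3 and Tead4 were lower in OG than in R26 libraries of the same sort, but for Tead4 in CD44+ cells the call was lost without R26 CD44+ animal 2 or 8 or OG CD44+ animal 3 or 7 (adjusted p 0.0513 to 0.114).

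**Figure D1:**
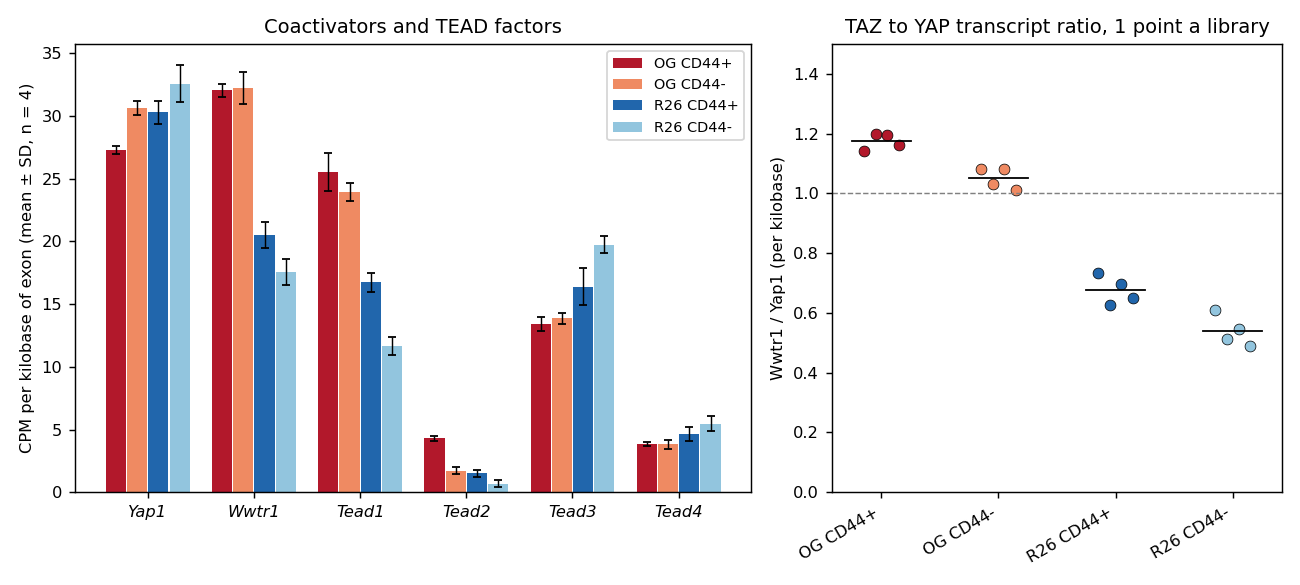
Left, mean level in CPM per kilobase of exon (bars; error bars are SD, n = 4 libraries) of Yap1, Wwtr1 and Tead1 to Tead4 in each group. Right, the Wwtr1 to Yap1 ratio of each library (points) with group means (lines): all 8 OG libraries lie above the dashed line at 1 and all 8 R26 libraries below it.

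The CCN genes were higher in CD44+ than in CD44- libraries of both prefixes, and higher in OG than in R26 libraries of both sorts. Ccn1 (CYR61; Entrez 16007, chromosome 3, 145646971 to 145649985) and Ccn2 (CTGF; Entrez 14219, chromosome 10, 24595442 to 24598683) encode secreted matricellular proteins that bind integrins. They are among the most used readouts of YAP and TAZ. Ccn1 was at 536, 533, 549.6 and 553 CPM in OG CD44+ and 193, 175, 181 and 195 CPM in OG CD44-. It was at 336, 196, 297 and 262 CPM in R26 CD44+ and 105, 79.0, 99.8 and 81.3 CPM in R26 CD44-. No 2 neighbouring groups overlapped, although the lowest R26 CD44+ library (animal 2) was nearly level with the highest OG CD44- library. Ccn1 rose 2.92-fold with CD44 in OG (log2 1.55 ± 0.13, adjusted p = 4.56e-07) and 2.99-fold in R26 (1.58 ± 0.14, adjusted p = 7.1e-07). Against R26 it rose 2.04-fold in OG CD44- (adjusted p = 1.19e-05) and 1.99-fold in OG CD44+ (adjusted p = 1.23e-05).

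Ccn2 was at 181, 200.2, 189 and 209 CPM in OG CD44+ and 47.8, 50.04, 50.4 and 50.3 CPM in OG CD44-. It was at 84.9, 49.3, 56.5 and 77.8 CPM in R26 CD44+ and 13.0, 12.7, 14.5 and 12.3 CPM in R26 CD44-. OG CD44+ was above and R26 CD44- below all other libraries, while R26 CD44+ and OG CD44- overlapped. Ccn2 rose 3.93-fold with CD44 in OG (log2 1.97 ± 0.12, adjusted p = 6.27e-09) and 5.12-fold in R26 (2.36 ± 0.15, adjusted p = 7.91e-09). Against R26 it rose 3.77-fold in OG CD44- (1.92 ± 0.15, adjusted p = 1.07e-08) and 2.90-fold in OG CD44+ (1.53 ± 0.12, adjusted p = 2.21e-08). Within every one of the 8 animals both CCN genes were higher in the CD44+ sort, by 1.31 to 1.69 on the log2 scale for Ccn1 and by 1.91 to 2.70 for Ccn2.

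**Figure D2:**
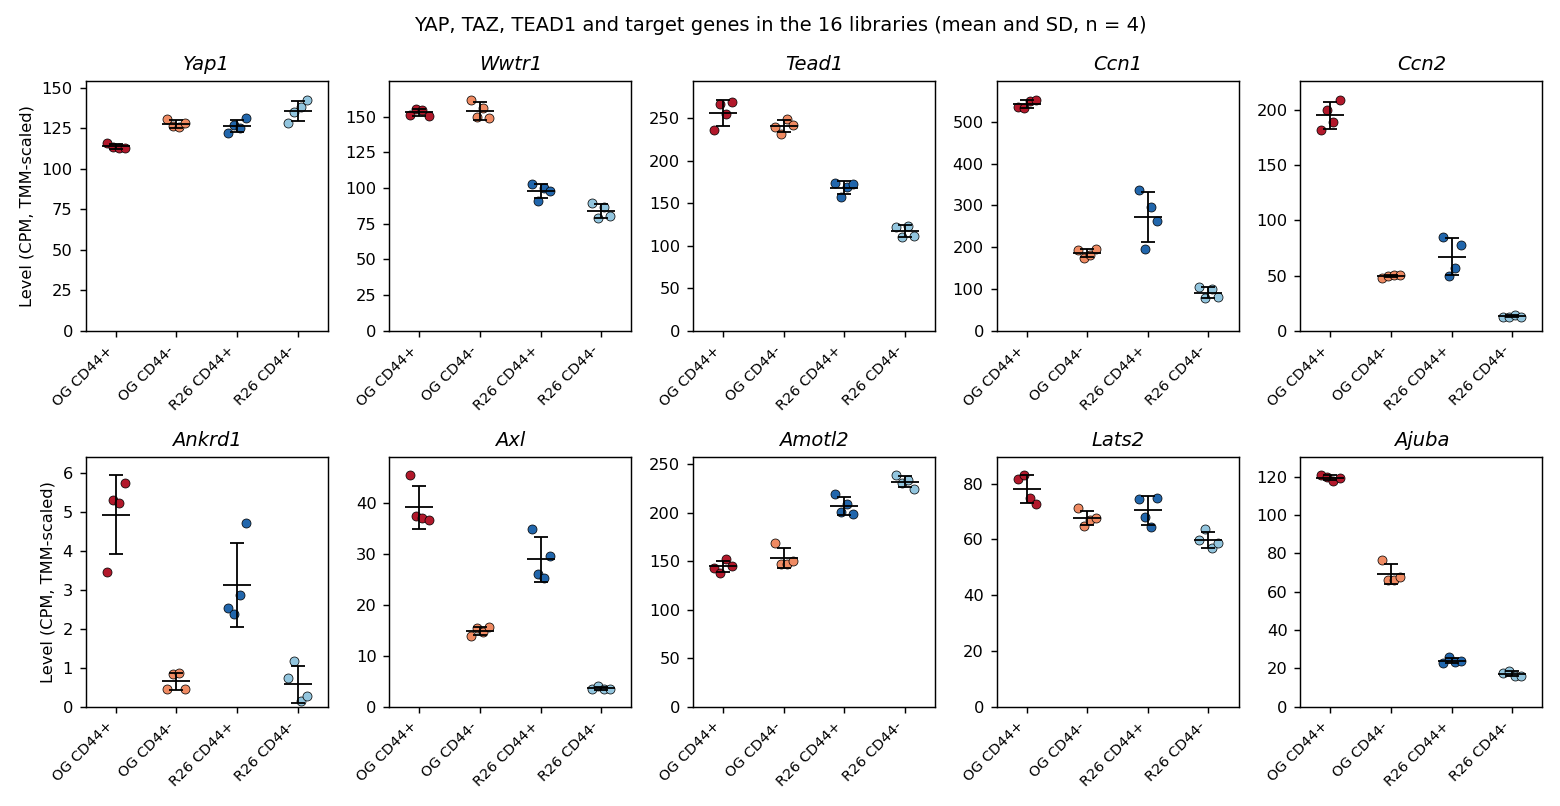
Level of each of the 10 genes in CPM (vertical axes, from 0) in the 16 libraries (points), with the mean and SD of each group (n = 4). Ccn1, Ccn2, Ankrd1 and Axl are higher in CD44+ than in CD44- of the same prefix without overlap, Wwtr1, Tead1 and Ajuba separate OG from R26, and Amotl2 is highest in R26.

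Ankrd1 and Axl also rose with CD44 in both prefixes. Ankrd1 (Entrez 107765, chromosome 19, 36111965 to 36119844) encodes an ankyrin repeat protein of the nucleus and the sarcomere, and is another standard YAP target. It was the least abundant of the 10, at 3.45, 5.31, 5.23 and 5.73 CPM in OG CD44+ and 0.461, 0.835, 0.851 and 0.455 CPM in OG CD44-. It was at 2.53, 2.38, 2.87 and 4.71 CPM in R26 CD44+ and 0.724, 1.17, 0.132 and 0.258 CPM in R26 CD44-. The sorts did not overlap in either prefix, and OG and R26 overlapped in both sorts. Ankrd1 rose 7.47-fold with CD44 in OG (log2 2.90 ± 0.36, adjusted p = 6.23e-07) and 5.76-fold in R26 (2.53 ± 0.41, adjusted p = 2.59e-05). Between prefixes its differences were 0.65 ± 0.31 in CD44+ (adjusted p = 0.0692) and 0.28 ± 0.47 in CD44- (adjusted p = 0.614). The CD44+ difference passed the threshold in 8 of 23 alternative settings, among them those without OG CD44+ animal 3 (adjusted p = 0.031) or without R26 CD44+ animal 8 (adjusted p = 0.0139).

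Axl (Entrez 26362, chromosome 7, 25756500 to 25788924) encodes a receptor tyrosine kinase of the TAM family. It was at 45.5, 37.5, 37.1 and 36.6 CPM in OG CD44+ and 14.0, 15.5, 14.7 and 15.7 CPM in OG CD44-. It was at 34.9, 26.01, 25.4 and 29.6 CPM in R26 CD44+ and 3.38, 4.08, 3.42 and 3.36 CPM in R26 CD44-. All neighbouring groups stood apart. Axl rose 2.63-fold with CD44 in OG (log2 1.39 ± 0.10, adjusted p = 4.71e-11) and 8.17-fold in R26 (3.03 ± 0.12, adjusted p = 1.85e-14). Against R26 it rose 4.20-fold in OG CD44- (adjusted p = 3.61e-13) and 1.35-fold in OG CD44+ (adjusted p = 0.000275).

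The 3 feedback and scaffold genes had 3 different patterns. Amotl2 (Entrez 56332, chromosome 9, 102717091 to 102733418) encodes a motin, a junction protein that binds YAP and is itself a YAP target. It was at 143, 138, 152 and 145 CPM in OG CD44+ and 169, 147, 147 and 151 CPM in OG CD44-. It was at 219.7, 201, 209 and 199 CPM in R26 CD44+ and 239, 231, 234 and 224 CPM in R26 CD44-. All OG libraries lay below all R26 libraries. Amotl2 was lower in OG CD44- than in R26 CD44- (log2 -0.60 ± 0.05, adjusted p = 1.5e-10) and in OG CD44+ than in R26 CD44+ (-0.52 ± 0.05, adjusted p = 2.39e-09). It was lower with CD44 in R26 (-0.16 ± 0.05, adjusted p = 0.0116), which missed the threshold when only those 8 libraries were fitted (adjusted p = 0.07). In OG the difference was -0.09 ± 0.05 (adjusted p = 0.159).

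Ajuba (Entrez 16475, chromosome 14, 54567469 to 54577661) encodes a LIM protein that binds and restrains LATS kinases at junctions. It was at 121, 120.0, 118 and 119.7 CPM in OG CD44+ and 76.8, 66.2, 66.1 and 67.5 CPM in OG CD44-. It was at 22.8, 25.8, 23.5 and 24.03 CPM in R26 CD44+ and 17.7, 18.8, 16.1 and 16.1 CPM in R26 CD44-. Its groups stood apart at every step. Ajuba rose 4.99-fold in OG CD44+ against R26 CD44+ (log2 2.32 ± 0.06, adjusted p = 1.38e-19) and 4.04-fold in OG CD44- against R26 CD44- (2.01 ± 0.06, adjusted p = 1.79e-18). With CD44 it rose 1.73-fold in OG (adjusted p = 8.33e-11) and 1.40-fold in R26 (adjusted p = 8.95e-06).

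Lats2 (Entrez 50523, chromosome 14, 57689662 to 57746212), the kinase that phosphorylates YAP and TAZ and is induced by them, moved little. It ranged over 72.7 to 82.96 CPM in OG CD44+, 64.9 to 71.2 in OG CD44-, 64.3 to 74.7 in R26 CD44+ and 57.0 to 63.5 in R26 CD44-. R26 CD44+ overlapped with both OG groups. Its 4 differences passed the threshold at log2 values of 0.15 to 0.24, and 3 of them were lost in some of the alternative settings. That of OG CD44- against R26 CD44- (0.18 ± 0.06, adjusted p = 0.00905) was lost without any 1 of the 8 R26 libraries (adjusted p 0.176 to 0.487). R26 CD44+ libraries are not part of that comparison, yet without any 1 of them the log2 value was 0.074. The call was also lost with DESeq2 size factors (0.115, adjusted p = 0.0884), so it depended on the scaling of the fit and not on single libraries alone. That of R26 CD44+ against R26 CD44- (adjusted p = 0.00295) was lost without R26 CD44- animal 1, 7 or 8 or R26 CD44+ animal 1 or 8 (adjusted p 0.0557 to 0.0948). That of OG CD44+ against R26 CD44+ (adjusted p = 0.0318) was lost without R26 CD44+ animal 7 or OG CD44+ animal 3 or 5 (adjusted p 0.0759 to 0.104).

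Counted over the 10 genes, OG CD44+ against OG CD44- had 7 changed, where 50.4% of all tested genes changed: 6 higher (Ccn1, Ccn2, Ankrd1, Axl, Lats2, Ajuba), against 22.3% of all tested genes, and 1 lower (Yap1), against 28.0%. R26 CD44+ against R26 CD44- had 9 changed, where 37.1% of all tested genes changed: 8 higher, against 21.6%, and Amotl2 lower, against 15.4%. OG CD44- against R26 CD44- had 7 higher (Wwtr1, Tead1, Ccn1, Ccn2, Axl, Lats2, Ajuba), against 39.4%, and Amotl2 lower, against 29.6%. OG CD44+ against R26 CD44+ had those 7 higher, against 34.5%, and Yap1 and Amotl2 lower, against 34.6%. These directional shares depended on the R26 libraries: without any 1 of them 2898 to 3260 genes rose and 3519 to 4429 fell with CD44 in R26, where the fit of all 16 had 3357 and 2393. In the OG against R26 comparisons most tested genes changed in some direction (69.0% in CD44- and 69.1% in CD44+), so a call there says little by itself. The median log2 fold change of the 10 genes was 0.50 in OG and 0.51 in R26 with CD44, beside -0.06 and -0.02 over all tested genes. Between prefixes it was 0.95 in CD44- and 0.63 in CD44+, beside 0.12 and -0.01. The comparisons share groups of libraries, so their counts are not independent of each other. The 10 genes were chosen with earlier results of these data known, so the counts are a description.

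The median of all genes in OG CD44- against R26 CD44- depended on the scaling, at 0.12 over 16 libraries and 0.01 when only the 8 compared were fitted. Relative to the median of 0.12, the log2 differences there were 1.80 for Ccn2, 1.96 for Axl, 1.90 for Ajuba, 0.91 for Ccn1, 0.93 for Tead1 and 0.76 for Wwtr1. They were 0.07 for Lats2, -0.20 for Yap1 and -0.71 for Amotl2. No member whose difference was called changed direction in any alternative setting run.

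**Figure D3:**
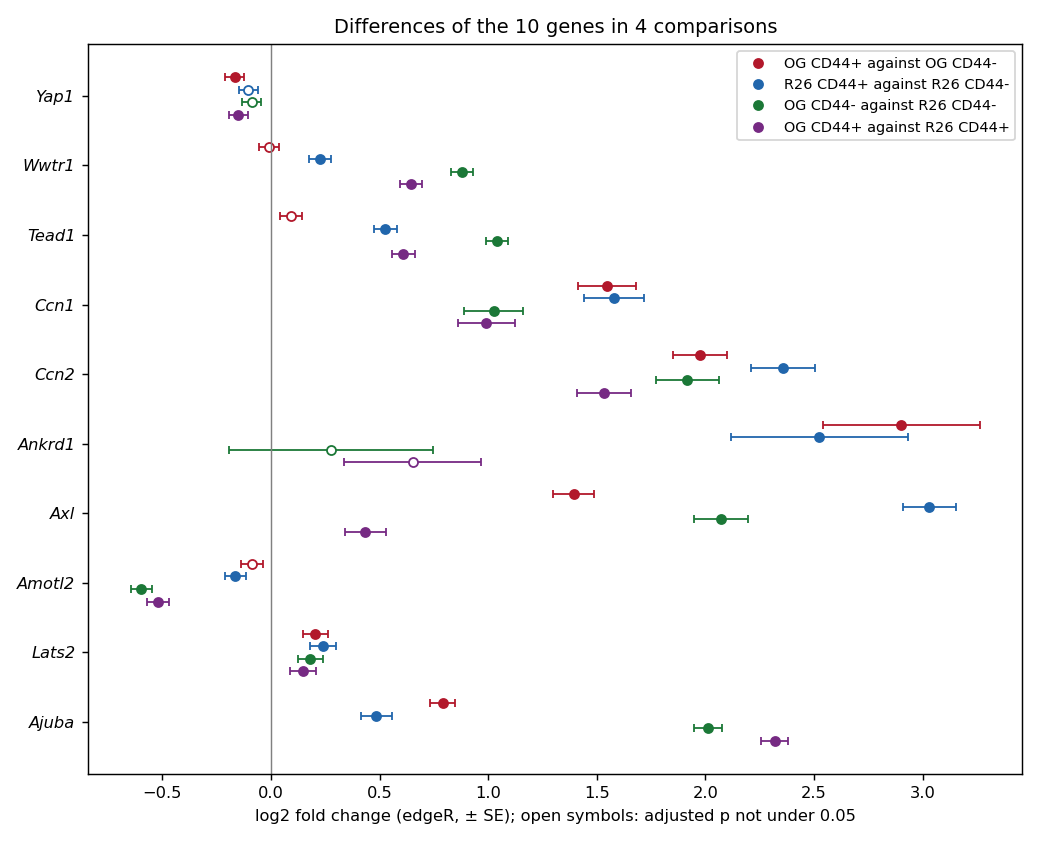
Log2 fold changes (points, horizontal axis) with SE (bars) from edgeR for the 10 genes in the 4 comparisons, filled where the adjusted p was under 0.05 and open where not. Ccn1 and Ccn2 lie right of 0 in all 4, Amotl2 lies left of 0, and Wwtr1, Tead1 and Ajuba have their larger shifts between OG and R26.

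Whether the CD44 difference itself differed between prefixes was tested as the OG difference minus the R26 difference. For 4 members it did, where it did for 24.7% of all tested genes: 1 higher, against 6.57%, and 3 lower, against 18.1%. Without any 1 of the R26 libraries 1720 to 2419 genes were higher and 1651 to 2104 lower, where the fit of all 16 had 1019 and 2806. Axl had the largest of these among the members (log2 -1.64 ± 0.16, adjusted p = 6.57e-08), with a larger CD44 difference in R26. Tead1 (-0.43 ± 0.07, adjusted p = 0.00012) and Wwtr1 (-0.24 ± 0.07, adjusted p = 0.0157) also had the larger difference in R26. The call for Wwtr1 was lost without any 1 of the 8 R26 libraries (adjusted p 0.107 to 0.43) and without both libraries of OG animal 3 (0.0576). Ajuba had the larger difference in OG (0.30 ± 0.09, adjusted p = 0.0168). For Ccn1 (-0.03 ± 0.19, adjusted p = 0.922) and Ccn2 (-0.38 ± 0.19, adjusted p = 0.167) no difference between prefixes was detected.

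Several non-AT2 marker lists moved with the sort, and so with the CCN genes, Ankrd1 and Axl, which fibroblasts, mesothelial and endothelial cells also express. In OG CD44+ against OG CD44- all 11 tested fibroblast and mural markers rose (median log2 1.24), where 22.3% of all tested genes rose. In R26 CD44+ against R26 CD44- all 11 rose (median 2.97), where 21.6% of all rose. In OG CD44- against R26 CD44- 9 of 11 rose and none fell (median 1.55), where 39.4% of all rose and 29.6% fell. In OG CD44+ against R26 CD44+ 3 of the 11 rose (Col1a1, Col1a2, Col3a1) and 3 fell (Dcn, Lum, Acta2), with a median of -0.12. These counts lie near the shares of all tested genes there, of which 34.5% rose and 34.6% fell. In the test between prefixes, where Axl, Tead1 and Wwtr1 were lower, the CD44 difference was lower in OG for 8 of these 11 (median -1.74). It was lower for all 9 tested endothelial markers (median -2.65), all 4 mesothelial (-2.07) and 4 of 6 leukocyte markers (-2.36). None of these was higher. For club and ciliated markers it was higher for 1 and 2 and lower for none. Alveolar lists moved in this test too. The CD44 difference was lower in OG for 8 of 10 AT1 markers and 5 of 10 AT2 markers, and higher for none of them. For the transitional alveolar markers described below it was lower for 4 of 8 and higher for 1. The shares of all tested genes were 18.1% lower and 6.57% higher. The part of fibroblast RNA in the results was not tested in any of the 4 comparisons or in this test.

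The libraries with the highest and lowest fibroblast and mural sums are described next. OG animal 3 CD44+, with the highest fibroblast and mural sum (2868 CPM) and the highest leukocyte sum (438 CPM, of which Jchain 402, against at most 184 in the other OG CD44+ libraries), had the lowest Ccn2 (181 CPM) and Ankrd1 of its group and the highest Axl (45.5 CPM). Without both libraries of that animal the same number of members, 7, was called with CD44 in OG. In R26 CD44+, animal 1 had the highest fibroblast and mural sum (1536 CPM) and the highest Ccn1, Ccn2 and Axl, and animal 2 had the lowest sum (755 CPM) and the lowest Ccn1 and Ccn2. The part of other cells in these single values was not tested.

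In several lists of other cells 1 abundant gene carried much of the sum. For the endothelial, mesothelial, leukocyte and ciliated lists sums are also given without it, a choice made after these values were seen. Esam, an endothelial adhesion molecule, was at 86.9 to 93.4 CPM in OG CD44+, 145 to 155 in OG CD44-, 84.7 to 98.5 in R26 CD44+ and 109 to 123 in R26 CD44-. The other 9 endothelial markers summed to 16.8 to 32.9 CPM in OG CD44+, 31.4 to 35.1 in OG CD44-, 88.7 to 112 in R26 CD44+ and 14.5 to 24.8 in R26 CD44-. In R26, 8 of 9 tested endothelial markers rose with CD44 and Esam fell (median log2 2.21), where 21.6% of all tested genes rose and 15.4% fell. In OG, 5 of 9 fell with CD44 and none rose (median -0.73), where 22.3% of all rose and 28.0% fell. Ccn1, Ccn2 and Axl rose with CD44 in both prefixes, and the part of endothelial RNA in this was not tested. In OG CD44+ against R26 CD44+ 7 of 9 fell, where 34.6% of all tested genes fell. In OG CD44- against R26 CD44- 4 of 9 rose and none fell, where 39.4% of all rose and 29.6% fell, so the 4 lie near the share of all genes.

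Msln, mesothelin, made up most of the mesothelial sum in the OG groups, at 94.3 to 113 CPM in OG CD44+ and 32.5 to 39.7 in OG CD44-. In R26 it did not do so throughout, at 15.8 to 35.5 CPM in R26 CD44+ and 2.71 to 5.001 in R26 CD44-. The other 4 mesothelial markers summed to 9.22 to 16.1 CPM in OG CD44+, 8.65 to 13.5 in OG CD44-, 21.8 to 39.5 in R26 CD44+ and 6.03 to 7.91 in R26 CD44-. In OG with CD44, Msln and Upk1b rose and Upk3b and Lrrn4 fell, and in R26 all 4 tested markers rose. In OG CD44+ against R26 CD44+ 1 rose and 2 fell (median -1.15), where 34.5% of all tested genes rose and 34.6% fell. Jchain, a gene of plasma cells, made up most of the leukocyte sum in CD44+ cells, at 148 to 402 CPM in OG CD44+, 8.36 to 15.2 in OG CD44-, 146 to 289.8 in R26 CD44+ and 0.646 to 2.01 in R26 CD44-, where S100a8 was at 0. The other 7 leukocyte markers summed to 27.8 to 36.7 CPM in OG CD44+, 29.2 to 34.2 in OG CD44-, 44.3 to 60.5 in R26 CD44+ and 20.3 to 25.2 in R26 CD44-. Of 6 tested leukocyte markers, 4 rose with CD44 in OG and Cd68 fell, and 5 rose in R26. With CD44, 22.3% of all tested genes rose and 28.0% fell in OG, and 21.6% rose and 15.4% fell in R26. Summed club cell markers (6 genes) were at 1845 to 2546 CPM in OG CD44+, 638 to 761 in OG CD44-, 1800 to 3288 in R26 CD44+ and 557 to 1184 in R26 CD44-. Summed ciliated cell markers (6 genes) were at 291 to 376 CPM in OG CD44+, 168 to 171 in OG CD44-, 153 to 262 in R26 CD44+ and 112 to 126 in R26 CD44-. Without Tppp3 the other 5 summed to 167 to 218 CPM in OG CD44+ and 56.9 to 65.1 in OG CD44-. In R26 they summed to 33.7 to 87.1 CPM in CD44+ and 23.4 to 40.7 in CD44-. The part of these cells in the results was not tested.

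The summed alveolar lists separated the prefixes. Summed markers of transitional alveolar cells, a keratin-rich state between AT2 and AT1 (8 genes), were at 4020 to 4148 CPM in OG CD44+, 2426 to 2584 in OG CD44-, 622 to 796 in R26 CD44+ and 444 to 485 in R26 CD44-. Summed AT1 markers (10 genes) were at 3752 to 4189 CPM in OG CD44+, 3838 to 4242 in OG CD44-, 2283 to 2701 in R26 CD44+ and 1582 to 1777 in R26 CD44-. The sums overlapped between the OG sorts, but single AT1 markers moved apart. With CD44, 4 of 10 rose and 2 fell in OG (median log2 0.01), where 22.3% of all tested genes rose and 28.0% fell. In R26, 8 rose and 1 fell with CD44 (median 1.76), where 21.6% of all rose and 15.4% fell. In OG CD44- against R26 CD44- 8 rose and none fell, where 39.4% of all rose and 29.6% fell. In OG CD44+ against R26 CD44+ 6 rose and 4 fell (Spock2, Igfbp2, Rtkn2, Cav1), where 34.5% of all rose and 34.6% fell. Summed AT2 markers were 20810 to 25140 CPM in OG CD44+, 42410 to 45410 in OG CD44-, 92410 to 132700 in R26 CD44+ and 140000 to 164600 in R26 CD44-. R26 CD44+ animal 2 stands apart at 132700 CPM, where the other libraries of its group reached at most 94530. It also had the lowest transitional sum of that group.

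**Figure D4:**
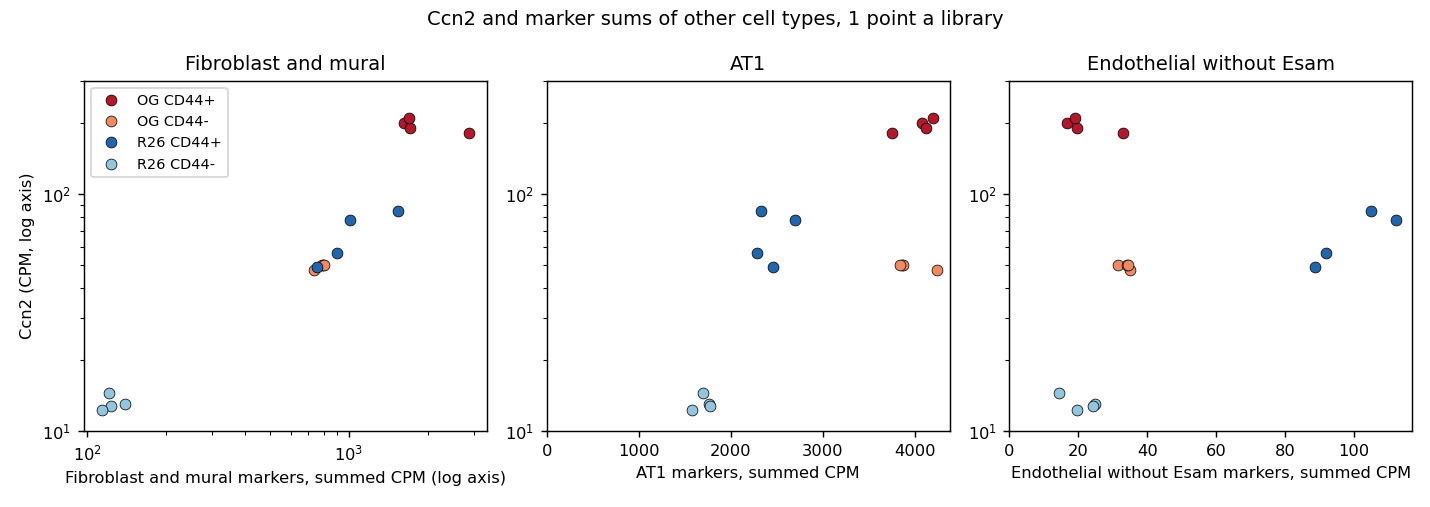
Ccn2 level (vertical, CPM, log axis) against the summed level of fibroblast and mural (log axis), AT1 and endothelial markers without Esam (linear axes) in CPM, 1 point a library. OG CD44+ libraries have the highest Ccn2, the highest endothelial sums are those of R26 CD44+ (88.7 to 112 CPM), and the OG CD44- libraries share high AT1 sums with OG CD44+ at about 50 CPM of Ccn2.

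A list of 24 other target genes of YAP and TAZ, all tested, held more genes that rose than fell with CD44. This list and the other pathway lists below were chosen with earlier results of these data known, so their counts are a description. In OG CD44+ against OG CD44- 19 rose and 3 fell (median log2 0.71), where 22.3% of all tested genes rose and 28.0% fell. In R26 CD44+ against R26 CD44- 16 rose and none fell (median 0.87), where 21.6% of all rose and 15.4% fell. Tgfb2, which encodes a TGF-beta ligand, rose 2.08-fold with CD44 in OG and 6.56-fold in R26. F3, tissue factor, rose 1.99-fold and 1.61-fold, and Edn1, endothelin 1, rose 3.61-fold and 1.67-fold, in OG and in R26. The call for Edn1 in R26 was lost without R26 CD44- animal 1 or 2 or R26 CD44+ animal 1 or 7 (adjusted p 0.0642 to 0.168). The 3 that fell in OG were Gadd45a, Dock5 and Rbms3, the last of which missed the threshold without any 1 of 13 of the 16 libraries (adjusted p 0.0542 to 0.144). Some genes of the list, such as Tagln and Igfbp3, are also strongly expressed by fibroblasts or mural cells.

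Between prefixes the list was less uniform. In OG CD44- against R26 CD44- 17 rose and 4 fell (median 0.91), where 39.4% of all tested genes rose and 29.6% fell. In OG CD44+ against R26 CD44+ 12 rose and 5 fell (median 0.30), where 34.5% of all rose and 34.6% fell. Tgfb2 rose 10.7-fold in CD44- and 3.40-fold in CD44+ cells. Flna, the actin crosslinker filamin A, rose 2.96-fold and 2.87-fold, Ccnd1, cyclin D1, rose 2.13-fold and 2.72-fold, and F3 rose 4.67-fold and 5.77-fold, in CD44- and in CD44+ cells. Rbms3, Tgfb1i1 and Arhgef17 fell in both, with Nuak2 in CD44- and with Igfbp3 and Tagln in CD44+. In CD44+ cells the calls for Arhgef17 (without R26 CD44+ animal 2 or OG CD44+ animal 5, adjusted p 0.0515 to 0.119) and Tagln (without R26 CD44+ animal 8 or OG CD44+ animal 5, 0.0536 to 0.095) depended on single libraries. The CD44 difference of the list differed between prefixes for 16 genes, higher in OG for 6 and lower for 10, where it was higher for 6.57% and lower for 18.1% of all tested genes.

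**Figure D5:**
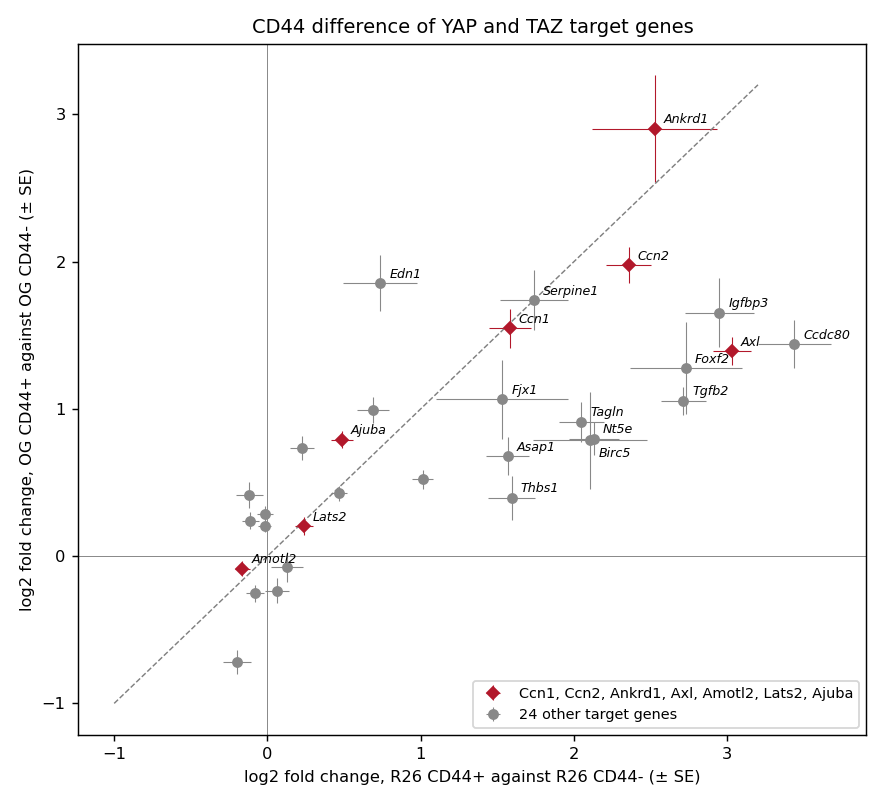
Log2 fold changes with CD44 in OG (vertical) against those in R26 (horizontal), with SE, for the 7 target and feedback genes (red diamonds) and 24 other targets (grey circles). The dashed line marks equal change: Ccn1 lies near it, Axl and Tgfb2 lie below it and Edn1 lies above it.

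Of 18 Hippo kinases and scaffolds upstream in the pathway, 5 rose and 8 fell with CD44 in OG, and 3 rose and 4 fell in R26, where 22.3% and 21.6% of all tested genes rose and 28.0% and 15.4% fell. Without R26 CD44+ animal 2 the R26 count was 3 and 9, and with only those 8 libraries fitted it was 3 and 1. Between prefixes, 8 rose and 9 fell in CD44- cells and 6 rose and 9 fell in CD44+ cells, where 69.0% and 69.1% of all tested genes changed. The list medians were -0.11, -0.03, -0.04 and -0.22 in these 4 comparisons. Lats1, the paralog of Lats2, was lower with CD44 in OG (log2 -0.31 ± 0.05, adjusted p = 1.74e-05) and 1.34-fold higher in OG CD44- than in R26 CD44- (adjusted p = 7.26e-08). Taok3, a kinase that activates the Hippo kinases, was lower in all 4 comparisons (log2 -0.30 to -0.45). Fat1, an atypical cadherin, rose 2.06-fold in OG CD44- against R26 CD44-, and Frmd6, a FERM-domain scaffold, was lower there (log2 -1.05 ± 0.07, adjusted p = 1.62e-12). Fat4 and Dchs1, a cadherin pair, rose with CD44 in both prefixes, from low means of 3.80 and 1.52 CPM in R26 CD44-.

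Most of 12 adaptors that bind YAP or sit at junctions were higher in OG than in R26 libraries. In OG CD44- against R26 CD44- 10 rose and 1 fell (Scrib; median 0.28), and in OG CD44+ against R26 CD44+ 9 rose and none fell (median 0.40), where 39.4% and 34.5% of all tested genes rose. With CD44, 3 rose and 2 fell in OG, where 22.3% of all rose and 28.0% fell. In R26 3 rose and 3 fell, where 21.6% of all rose and 15.4% fell. The counts that rose lie near these shares. The OG count was 2 and 1 without OG CD44- animal 5, and also without both libraries of OG animal 3. Limd1, which fell with CD44 in OG, missed the threshold without any 1 of 11 of the 16 libraries (adjusted p 0.066 to 0.168). Its rise in OG CD44- against R26 CD44- was lost without any 1 of the 8 R26 libraries (adjusted p 0.418 to 0.652). Sfn, the 14-3-3 sigma protein that keeps partners in the cytoplasm and is also a transitional cell marker, rose 7.76-fold in OG CD44- against R26 CD44-. Ptpn14, a phosphatase that binds YAP, rose 5.67-fold there. Among motins, Amot rose 2.09-fold and Amotl1 rose 1.23-fold in the comparison in which Amotl2 was lower.

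VGLL proteins bind TEADs in place of YAP. Of the 5 other TEAD and VGLL genes tested, 2 rose and 1 fell with CD44 in OG, 2 rose and 2 fell with CD44 in R26, 2 rose and 3 fell in OG CD44- against R26 CD44-, and 1 rose and 3 fell in OG CD44+ against R26 CD44+. The shares of all tested genes that changed were 50.4%, 37.1%, 69.0% and 69.1%. Vgll4, which represses TEAD targets, was lower in all 4 comparisons (log2 -0.23 to -0.68), though in OG with CD44 not without both libraries of animal 3 (adjusted p = 0.0523). Vgll3 rose with CD44 in both prefixes, from low means of 3.10 CPM in OG CD44- and 1.70 CPM in R26 CD44-.

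Among 8 tested paralogs and partners of the CCN genes, Ankrd1 and Axl, 4 rose and 1 fell with CD44 in OG and 5 rose and 1 fell in R26. Of all tested genes, 22.3% rose and 28.0% fell in OG, and 21.6% rose and 15.4% fell in R26. Between prefixes, 5 rose and 2 fell in CD44- cells and 4 rose and 3 fell in CD44+ cells, where 39.4% and 34.5% of all rose and 29.6% and 34.6% fell. The ligands of TAM receptors moved apart: Gas6, the ligand of AXL, was lower in OG CD44- than in R26 CD44- (log2 -1.52 ± 0.07, adjusted p = 4.19e-15), where Pros1, protein S, a ligand of the TAM receptors TYRO3 and MERTK, rose 2.18-fold. Of these receptors, Tyro3 rose 2.63-fold in the same comparison, and Mertk was lower (log2 -0.92 ± 0.25, adjusted p = 0.0022). Ccn4 rose in all 4 comparisons, by 2.28-fold to 2.96-fold, but at low levels, with means from 0.970 CPM in R26 CD44- to 6.66 CPM in OG CD44+.

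Among 7257 genes of at least moderate level, the 5 with the profile nearest to that of Ccn2 over the 16 libraries were Cp, Tm4sf1, Emp1, Pxdn and Lamb1. Nearness was the root mean square difference of centred log2 CPM, which was 0.161 for Cp, the gene of the copper carrier ceruloplasmin, and 0.304 to 0.351 for the other 4. Cp averaged 305 CPM in OG CD44+, 88.6 in OG CD44-, 119.9 in R26 CD44+ and 26.2 in R26 CD44-.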

How the data were processed

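The authors deposited raw read counts per gene for 16 libraries, not normalized. Per the submitters' processing notes, alignment was to mm10 with Bowtie2. Per the labels' protocols, the kit was for stranded total RNA after removal of ribosomal RNA. The counting program, annotation and strand setting are not given in the sources used here. No other gene in the count table overlaps a member. Sorts and prefixes come from column names, and all columns were used.

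Libraries were scaled by TMM after low genes were removed by filterByExpr (edgeR 4.0.16 in R 4.3.3). All 16 libraries were fitted together, 1 mean a group, and tested by robust quasi-likelihood. Genes were called at a Benjamini-Hochberg adjusted p under 0.05, without a minimum fold. SE is the log2 fold change divided by the square root of F. Lengths for CPM per kilobase are the union of GENCODE vM21 basic exons. RefSeq names matched 25275 of 27179 identifiers. Nearest profiles used log2 CPM with a prior count of 2, over genes whose mean log2 CPM was 4 or more. Those of Yap1 are not reported here.

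The members, 5 pathway lists and 9 marker lists were chosen with earlier results of these data known. Named pathway genes are up to 4 per list with the smallest adjusted p in OG CD44+ against OG CD44-, up to 4 in OG CD44- against R26 CD44-, and those moving against the majority of their list. Not all are printed.

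The column names give each animal 1 CD44+ and 1 CD44- library, which pairs the sorts. Deviations from group means correlated at 0.0111 to 0.273 between an OG animal's libraries and at 0.232 to 0.465 between an R26 animal's. Alternatives were DESeq2 1.42.0 size factors and its Wald test, no filter, at least 50 counts in 4 libraries, limma 3.58.1 voom with quality weights, only the 8 libraries compared, the animal as a block, leaving out both libraries of OG animal 3, and leaving out each library. The edgeR fit was tested on simulated counts. It missed the bound first set for recovery of 2-fold changes over all genes. The misses lay mostly among genes of few counts, and the bound was then applied to better counted genes only, which met it. Ankrd1 is a gene of few counts.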

Additional observations from a re-analysis of the deposited data

Results flagged for a closer look

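The CD44 difference in OG minus that in R26 was tested directly, and 4 members passed (edgeR's quasi-likelihood test, Benjamini-Hochberg adjustment). The log2 values were -1.6378 for Axl (adjusted p = 6.57e-08), -0.4316 for Tead1 (adjusted p = 0.00012), -0.2353 for Wwtr1 (adjusted p = 0.0157) and 0.3046 for Ajuba (adjusted p = 0.0168). A negative value means that the CD44 difference, with its sign, was lower in OG than in R26.

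Of 48 named pathway genes, 22 passed the same test, where 24.7% of all tested genes did. The 48 were chosen partly by comparisons that enter this test, so their count supports nothing. Among other targets the log2 values were -1.6587 for Tgfb2, -1.2961 for Igfbp3, -1.1368 for Tagln, -0.5171 for Gadd45a, 0.2209 for Myof, 0.3037 for Arhgef17, 0.352 for Ccnd1, 0.5115 for Tgfb1i1, 0.5328 for Nuak2 and 1.1185 for Edn1. Among kinases and scaffolds they were -1.9203 for Dchs1, -0.8105 for Fat4, -0.2652 for Taok1, -0.2021 for Lats1 and 0.1865 for Wwc2. Among adaptors and VGLL genes they were -1.0563 for Ptpn14, -0.5179 for Sfn, 0.3044 for Ctnna1 and -1.2256 for Vgll3. Among paralogs and partners they were -2.1206 for Ccn3, -0.603 for Pros1 and 0.7423 for Ankrd23. Single libraries ended the call for Fat4, Lats1, Pros1, Taok1, Vgll3 and Wwc2, with adjusted p of 0.0503 to 0.709 without them.

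Of the 40 groups of 4 libraries, 6 held a library far from the other 3 of its group, and chance does this in about 1 group in 20. OG animal 3 accounts for 5 of them: Yap1 at 115.9 CPM and Axl at 45.54 CPM in CD44+, and Ccn2 at 47.82, Amotl2 at 168.7 and Ajuba at 76.78 CPM in CD44-. The other was Axl at 4.081 CPM in R26 CD44- animal 2. Except for Ccn2, each was the highest of its group. Summed markers of fibroblast and mural cells were at 2868 CPM in OG CD44+ animal 3 and 1629 to 1716 CPM in the other OG CD44+ libraries, and leukocyte markers, mostly Jchain, at 438.5 CPM and 175.6 to 183.6 CPM. In OG CD44- animal 3 the fibroblast and mural markers were the lowest of their group, at 733.7 CPM. Their part in these values was not tested.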

How the results depend on the processing

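Of 50 pairs of a member and a comparison, 38 stayed on the same side of the threshold under all alternatives run, and none reversed with a call. Over single fits of members, 1082 stayed on the same side, 49 gained a call and 39 lost one. Over those of named pathway genes the numbers were 5244, 206 and 161. With the replicate block of animals, 7 members were called with CD44 in OG, 10 in R26 and 4 in the test between prefixes, and the block changed no member's call but that of Yap1 in R26. The number of members called on leaving out 1 library ranged from 7 to 8 with CD44 in OG, 8 to 10 in R26, 8 to 10 between prefixes in CD44+ cells and 3 to 4 for the difference of differences, and was 8 throughout in CD44- cells.

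Scaling mattered to small differences. With DESeq2 size factors, genes called with CD44 in R26 were 3174 higher and 3435 lower, where TMM gave 3357 and 2393, and in the difference of differences 1460 and 2275, where TMM gave 1019 and 2806. Leaving out any 1 R26 library moved the split further: 1720 to 2419 higher and 1651 to 2104 lower in the difference of differences, 2898 to 3260 and 3519 to 4429 with CD44 in R26, and 3830 to 4098 and 3474 to 3816 with CD44 in OG, where all 16 gave 3464 and 4351. It also moved the median of all genes in OG CD44- against R26 CD44- to 0.00295 to 0.00798, where all 16 gave 0.116. The cause was not tested. Ankrd1, at 2 to 76 counts, is limited by depth.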
